A study of Mus musculus with 12 samples.

Results

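The glucocorticoid-responsive genes examined here were Fkbp5, Sgk1, Tsc22d3, Zbtb16 and Pdk4, 5 of the 45906 genes in the count table. They were taken by symbol as known glucocorticoid targets, and all 5 passed the filter on low counts, which kept 20155 genes. RNA of whole spinal cord was sequenced from 12 mice at 7 months of age, with 3 mice in each of 4 genotypes. Plekhg5+/+ mice were the wildtype controls, and Plekhg5-/- mice were deficient in Plekhg5, an exchange factor linked to autophagy in motoneurons. Plekhg5+/+ SOD1-G93A mice carried a low-copy human SOD1 transgene with an amyotrophic lateral sclerosis mutation, and Plekhg5-/- SOD1-G93A mice combined both alleles. All strains were on a C57BL/6 background, and the labels name no treatment. SOD1-G93A mice are an overexpression model, with the human protein made beside the mouse protein. The cell types and promoter behind either allele are not given in the sources used here.

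Glucocorticoids, chiefly corticosterone in mice, enter cells and bind the glucocorticoid receptor encoded by Nr3c1, which Hsp90 and its partner proteins hold in a hormone-binding state. The occupied receptor moves to the nucleus and binds response elements made of a pair of inverted AGAACA half-sites separated by 3 bases. Circulating hormone follows a daily rhythm and increases with stress, and its target transcripts follow within hours in neurons, astrocytes, oligodendrocytes and endothelium. The time of day of tissue collection is not given in the sources used here.

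The members stand for different arms of this response. Fkbp5 encodes a co-chaperone that lowers the affinity of the receptor for hormone and so closes a feedback loop. Sgk1 encodes a serine/threonine kinase that acts on ion channels and transporters. Tsc22d3 encodes GILZ, an anti-inflammatory leucine zipper protein, and Zbtb16 encodes PLZF, a zinc finger transcriptional repressor. Pdk4 encodes a kinase that inhibits the pyruvate dehydrogenase complex and thereby spares glucose.

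On GRCm38.p6 the annotated gene bodies lay on 5 chromosomes. Fkbp5 (gene ID 14229) was at chr17:28398753-28486149 on the minus strand and Sgk1 (20393) at chr10:21882184-21999903 on the plus strand. Tsc22d3 (14605) was at chrX:140539528-140600522, Zbtb16 (235320) at chr9:48651797-48836225 and Pdk4 (27273) at chr6:5483351-5496278, all on the minus strand. Reads on the exons of these genes were counted, so the values cover coding sequence and untranslated regions together.

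The RefSeq promoter windows of GRCm38.p6, each with 250 bases before and 50 bases after an annotated start, were searched for the glucocorticoid response element on both strands. Windows were found for 4 of the 5 genes: 6 for Sgk1, 3 for Tsc22d3, and 1 each for Fkbp5 and Pdk4. Zbtb16 had 0 windows in the table. The complete element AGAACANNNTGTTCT was present in 3 of 32817 windows (0.00914%), and 1 of these 3 belonged to Sgk1. The other two belonged to Gm35041 and Acnat2, named here after the search was seen. With up to 2 of its 12 fixed bases different the element was in 1.84% of windows, and the half-site AGAACA, which the full element contains, was in 19.0%. Of the 6 Sgk1 windows, 2 matched with up to 2 bases different and 3 held a half-site, each count with the complete element included. Of the 3 Tsc22d3 windows, 1 held a half-site. The windows of Fkbp5 and Pdk4 held no match of any kind.

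The window of Sgk1 with the complete element is shown first because it is the only member window with an exact match. It covers chr10:21993640-21993939 on the plus strand, and the element lies 189 to 175 bases before the start at 21993890. A second window of Sgk1, chr10:21985854-21986153 on the plus strand, holds a match with 2 bases different 183 to 169 bases before its start. The window of Tsc22d3 at chrX:140600473-140600772 on the minus strand holds a half-site only, and that of Fkbp5 at chr17:28486100-28486399 on the minus strand holds neither and is shown for contrast. Sequences run 5′ to 3′ on the strand of the gene, and capitals mark matches to the element or its half-site on either strand.
Sgk1, complete element: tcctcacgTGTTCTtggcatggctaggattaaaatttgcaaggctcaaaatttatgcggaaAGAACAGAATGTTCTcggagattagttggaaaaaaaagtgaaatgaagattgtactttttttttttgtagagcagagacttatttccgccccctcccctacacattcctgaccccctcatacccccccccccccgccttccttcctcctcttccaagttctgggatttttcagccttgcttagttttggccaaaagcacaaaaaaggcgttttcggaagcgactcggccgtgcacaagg
Sgk1, 2 bases different: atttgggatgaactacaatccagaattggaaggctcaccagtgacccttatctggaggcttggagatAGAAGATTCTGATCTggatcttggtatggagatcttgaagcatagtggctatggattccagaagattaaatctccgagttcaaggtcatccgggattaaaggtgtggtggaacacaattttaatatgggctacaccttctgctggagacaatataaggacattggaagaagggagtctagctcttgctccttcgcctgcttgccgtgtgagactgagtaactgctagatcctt
Tsc22d3, half-site: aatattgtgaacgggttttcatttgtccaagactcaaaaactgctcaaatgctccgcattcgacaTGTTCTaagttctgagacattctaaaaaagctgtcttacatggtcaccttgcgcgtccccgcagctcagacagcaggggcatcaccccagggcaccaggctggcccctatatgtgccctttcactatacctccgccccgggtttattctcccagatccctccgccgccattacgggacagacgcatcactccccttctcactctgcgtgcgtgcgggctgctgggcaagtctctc
Fkbp5, no match: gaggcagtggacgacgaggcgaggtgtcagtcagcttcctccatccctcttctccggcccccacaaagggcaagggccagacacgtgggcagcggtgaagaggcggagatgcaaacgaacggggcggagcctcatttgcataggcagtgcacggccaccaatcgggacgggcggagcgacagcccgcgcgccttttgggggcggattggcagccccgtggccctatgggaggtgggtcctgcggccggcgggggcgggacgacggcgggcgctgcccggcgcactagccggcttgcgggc
These matches describe letters in short windows. Receptor binding was not measured, and elements further from the start sites were not searched.

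The libraries held 30415643 to 38743628 counts. The label check held, with Plekhg5 at 22.9 ± 3.08 CPM (normalised counts scaled to library size, mean ± SD, n = 3) in Plekhg5+/+ and 3.98 ± 0.712 CPM in Plekhg5-/- mice, and human SOD1 at 4993 ± 612 CPM in Plekhg5+/+ SOD1-G93A mice. Transcripts of Y-linked genes were present in 8 libraries and at most 9.33 counts in the other 4, which were 1 Plekhg5-/-, 1 Plekhg5+/+ SOD1-G93A and 2 Plekhg5-/- SOD1-G93A. A single library of each genotype stood apart by skeletal muscle transcripts (Ckm, Acta1, Myh4, Tnnt3 and Mylpf), with 33.2 to 145 CPM in sum against 2.35 to 7.32 CPM in the other 8. These were Plekhg5+/+ 3, Plekhg5-/- 2, Plekhg5+/+ SOD1-G93A 3 and Plekhg5-/- SOD1-G93A 2. The 6 motoneuron markers (Chat, Slc18a3, Slc5a7, Isl1, Mnx1 and Prph) summed to 201 to 306 CPM and the 8 oligodendrocyte markers to 22080 to 31400 CPM over the libraries. In bulk tissue, fewer cells of a type and less RNA per cell cannot be told apart.

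The levels of the 5 genes were first compared in Plekhg5+/+ mice, per kilobase of exon. Tsc22d3 had 57.4 ± 12.0 CPM per kilobase and Sgk1 55.4 ± 33.5 CPM per kilobase. Fkbp5 followed with 12.1 ± 0.863, Pdk4 with 9.30 ± 3.53 and Zbtb16 with 7.25 ± 2.21 CPM per kilobase (SD, n = 3). By mean, the first 2 genes were thus several-fold above the other 3, whereas neighbours within each set overlapped in their values. In the third Plekhg5+/+ library the gap was smaller, with Sgk1 at 18.4 and Fkbp5 at 11.7 CPM per kilobase. The lowest raw count of any member in any library was 495, for Pdk4. Counting error was not small beside the spread between mice in every group. For Zbtb16 in Plekhg5+/+ SOD1-G93A mice, at 529 to 581 counts, the SD between mice was only 2.51% of the mean.

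Fkbp5 had 50.8, 44.6 and 45.4 CPM in the 3 Plekhg5+/+ mice and 57.9, 34.3 and 32.8 CPM in the Plekhg5-/- mice. It had 28.3, 27.2 and 35.3 CPM in the Plekhg5+/+ SOD1-G93A mice and 35.5, 35.9 and 34.4 CPM in the Plekhg5-/- SOD1-G93A mice. Every Plekhg5+/+ library lay above every SOD1-G93A library of either background, and the Plekhg5-/- group was split, with its first library the highest of all 12.

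Zbtb16, the repressor, had the widest range among the low-level members. It had 68.4, 64.2 and 36.7 CPM in Plekhg5+/+ and 77.7, 20.2 and 16.3 CPM in Plekhg5-/- mice. The Plekhg5+/+ SOD1-G93A mice had 18.1, 17.5 and 17.2 CPM and the Plekhg5-/- SOD1-G93A mice 16.2, 31.0 and 18.8 CPM. The 3 Plekhg5+/+ SOD1-G93A values were nearly identical and all below the lowest Plekhg5+/+ value, while the first Plekhg5-/- library was again the highest of the 12. That library also had the largest sum of 8 oligodendrocyte markers, 31400 CPM against 22080 to 27700 CPM in the other 11. The part of these markers in the Fkbp5 and Zbtb16 values was not tested.

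Tsc22d3, the gene of the anti-inflammatory factor GILZ, had 273, 264 and 182 CPM in Plekhg5+/+ and 214, 190 and 153 CPM in Plekhg5-/- mice. It had 125, 165 and 177 CPM in Plekhg5+/+ SOD1-G93A and 139, 188 and 175 CPM in Plekhg5-/- SOD1-G93A mice. The Plekhg5+/+ mice lay above the Plekhg5+/+ SOD1-G93A mice without overlap, by a narrow margin at the third Plekhg5+/+ library. For Tsc22d3, fractional counts from shared reads occurred in 5 libraries.

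Sgk1 had 348, 267 and 76.7 CPM in Plekhg5+/+ and 135, 246 and 118 CPM in Plekhg5-/- mice. It had 103, 99.0 and 206 CPM in Plekhg5+/+ SOD1-G93A and 55.4, 208 and 110 CPM in Plekhg5-/- SOD1-G93A mice. All groups overlapped, and the highest value within a genotype was up to 4.54 times the lowest. The 4 libraries with most muscle transcripts held the lowest Sgk1 value of Plekhg5+/+ mice and the highest value of each other genotype.

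Pdk4 had 42.8, 34.7 and 18.8 CPM in Plekhg5+/+ and 26.8, 27.5 and 21.4 CPM in Plekhg5-/- mice. It had 24.6, 21.1 and 21.1 CPM in Plekhg5+/+ SOD1-G93A and 15.3, 21.4 and 21.0 CPM in Plekhg5-/- SOD1-G93A mice. The first and second Plekhg5+/+ libraries stood above the remaining 10, and the third had the second lowest value of the 12.

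**Figure D1:**
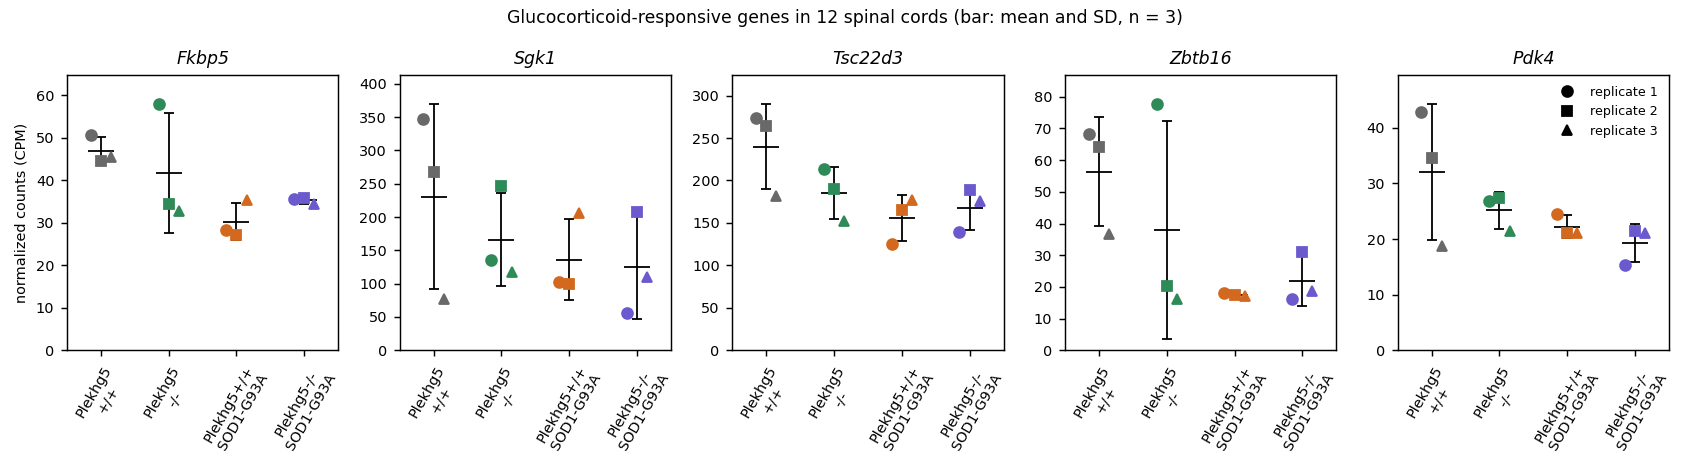
Normalised counts (CPM, linear axis from 0) of the 5 genes in the 12 spinal cords, by genotype. Symbols stand for replicate numbers and black bars for the mean and SD of 3 mice. The 3 Plekhg5+/+ SOD1-G93A mice lie below the 3 Plekhg5+/+ mice for Fkbp5, Tsc22d3 and Zbtb16, and Sgk1 overlaps in all genotypes.

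The SOD1-G93A transgene was then compared with its absence in mice with Plekhg5. All 5 genes had lower means in Plekhg5+/+ SOD1-G93A than in Plekhg5+/+ mice, and none passed the test across all genes (edgeR quasi-likelihood test, Benjamini-Hochberg adjusted p under 0.05), which called 2.47% of the genes tested. The difference of Fkbp5 was -0.63 on the log2 scale (SE 0.181, 95% interval -1.03 to -0.24, adjusted p = 0.0895), a mean of 30.2 ± 4.40 against 46.9 ± 3.35 CPM. Tsc22d3 differed by -0.62 (SE 0.182, -1.02 to -0.23, adjusted p = 0.096), with 156 ± 26.9 against 240 ± 50.2 CPM. Zbtb16 differed by -1.68 (SE 0.571, -2.97 to -0.39, adjusted p = 0.16), with 17.6 ± 0.440 against 56.4 ± 17.2 CPM.

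For the remaining members the interval of the difference included 0. Sgk1 differed by -0.76 (SE 0.649, -2.24 to 0.72, adjusted p = 0.592) and Pdk4 by -0.53 (SE 0.242, -1.06 to 0.00051, adjusted p = 0.276). The median of the 5 differences was -0.63, beside -0.00099 over all genes tested. Before adjustment, 3 of the 5 genes had a p under 0.05 and a lower mean, against 7.51% of all genes. The same 3 genes, Fkbp5, Tsc22d3 and Zbtb16, were lower without overlap of the 3 and 3 libraries, which held for 9% of all genes. The two-sided exact permutation p was 0.1 for each of these 3, the smallest that 3 against 3 mice can give.

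The calls of these genes depended on the model and on single libraries. DESeq2, with or without a prior on fold changes, called Fkbp5 and Tsc22d3 in this comparison (adjusted p = 0.0116 and 0.0108 with the prior), and also called more genes in all, 1196 with the prior against 498 by edgeR. The order of the differences depended on the prior, with -0.25 for Zbtb16 against -0.41 for both Fkbp5 and Tsc22d3 when fold changes were shrunken. Without the third Plekhg5+/+ library, edgeR called Tsc22d3 (-0.80, adjusted p = 0.0376) and Pdk4 (-0.81, adjusted p = 0.0252). Without the first Plekhg5-/- library, edgeR called Fkbp5 (-0.65, adjusted p = 0.0163) and Zbtb16 (-1.70, adjusted p = 0.0248). These 2 differences were close to those with all libraries, -0.63 and -1.68. The library left out belongs to neither group compared, and the 4 genotypes shared an estimate of the spread in the fit. Without the first Plekhg5+/+ library the differences were smaller, -0.34 for Sgk1 (adjusted p = 0.827), -0.26 for Pdk4 (adjusted p = 0.551) and -0.52 for Tsc22d3 (adjusted p = 0.207, edgeR). With limma voom, Sgk1 was at -0.41 and Pdk4 at -0.31, whereas Sgk1 was at -1.19 without the third Plekhg5+/+ or the third Plekhg5+/+ SOD1-G93A library. Without the 4 libraries with most muscle transcripts, the Sgk1 difference was -1.62 (adjusted p = 0.0471), more than 1.5 times the value with them. That fit had 2 mice per genotype and was added after the values were seen.

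Markers of other cells moved with the transgene in the same mice. The 10 microglial markers summed to 764 to 1358 CPM in Plekhg5+/+ SOD1-G93A and 410 to 472 CPM in Plekhg5+/+ mice, and 9 of the 10 were called higher. The 8 astrocyte markers summed to 9208 to 12210 against 7563 to 7845 CPM, with 1 of 8 (Gfap) called higher. Of 8 oligodendrocyte markers, Opalin alone was called, higher by 0.76 on the log2 scale (adjusted p = 0.0165, edgeR), and of 8 endothelial markers Ly6c1 alone, which fell by 0.56 (adjusted p = 0.0361, edgeR). The 6 motoneuron markers summed to 201 to 263 against 275 to 283 CPM, with 0 of 6 called by edgeR. At an unadjusted p under 0.05, 4 of 6 were lower, and DESeq2 called 1 of 6, Chat. The 5 neuron markers (Rbfox3, Snap25, Syt1, Tubb3 and Map2) summed to 4233 to 4768 against 4903 to 5076 CPM. Of these, 0 of 5 were called by edgeR or DESeq2. At an unadjusted p under 0.05 (edgeR) 2 of 5 were lower, against 7.51% of all genes. The first and second Plekhg5+/+ libraries, which held the highest Sgk1, Tsc22d3 and Pdk4 values, had 202 and 191 CPM in sum over 8 immediate early genes, against 96.6 to 163 CPM in the other 10 libraries. The first of them also had the largest share of mitochondrial counts, 1.10% against 0.522 to 0.711%. The part of these markers in the members' values was not tested.

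Without Plekhg5, the same comparison gave differences of -0.24 for Fkbp5, -0.42 for Sgk1, -0.14 for Tsc22d3, -0.80 for Zbtb16 and -0.39 for Pdk4 on the log2 scale. The SEs were 0.18, 0.648, 0.181, 0.560 and 0.243, and the adjusted p-values were 0.95 to 0.959 (edgeR), in a comparison that called 0.00496% of genes. DESeq2 also called 0 of the 5, and 0 had an unadjusted p under 0.05, against 5.38% of all genes. For each gene the groups overlapped, whereas 5.22% of all genes were lower in Plekhg5-/- SOD1-G93A mice without overlap. The directions for Fkbp5 and Zbtb16 rested on the first Plekhg5-/- library: without it, the differences were 0.066 and 0.26. With 1 library left out, Sgk1 ran from -1.01 (without the second Plekhg5-/- SOD1-G93A) to -0.021 (without the second Plekhg5-/-), and Tsc22d3 from -0.27 to -0.022.

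The difference between both transgene effects was tested as an interaction. Its estimates were 0.39 for Fkbp5, 0.35 for Sgk1, 0.48 for Tsc22d3, 0.89 for Zbtb16 and 0.14 for Pdk4, on the log2 scale, and positive values mean a smaller decrease in mean without Plekhg5. The adjusted p-values were 0.588 to 0.916 (edgeR), in a test that called 0 genes (0%) and had 779 genes higher and 1045 lower at an unadjusted p under 0.05 (9.05%), none of them a member, whereas DESeq2 without a prior called 95, of which 0 were members. The intervals were wide, from -0.081 to 1.04 for Tsc22d3 and from -0.90 to 2.68 for Zbtb16, and a difference between the backgrounds was not detectable at this spread.

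Averaged over both backgrounds, the transgene effect was -0.44 for Fkbp5 (SE 0.127, 95% interval -0.71 to -0.16, adjusted p = 0.117, edgeR). It was -1.24 for Zbtb16 (SE 0.400, -2.14 to -0.34, adjusted p = 0.178), -0.46 for Pdk4 (SE 0.171, -0.84 to -0.083, adjusted p = 0.228) and -0.38 for Tsc22d3 (SE 0.128, -0.66 to -0.10, adjusted p = 0.172). Sgk1 differed by -0.59 (SE 0.458, -1.63 to 0.45, adjusted p = 0.642). None was called, in a comparison that called 1.22% of genes. At an unadjusted p under 0.05, 4 of 5 were lower, against 5.33% of all genes. Two-sided exact permutation within both backgrounds gave p = 0.03 for Zbtb16, 0.05 for Fkbp5, 0.055 for Tsc22d3, 0.08 for Pdk4 and 0.26 for Sgk1, where 0.005 is the smallest value possible. The average shares its libraries with the separate comparisons and adds no independent evidence to them.

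DESeq2 again called Fkbp5 and Tsc22d3 in the averaged comparison, with adjusted p = 0.0198 and 0.0486 with the prior. It also called more genes in all, 819 with the prior against 245 by edgeR. Without the third Plekhg5+/+ library, edgeR called Pdk4 alone (-0.60, adjusted p = 0.0425). Without the first Plekhg5-/- library the average was -0.72 for Zbtb16 and -0.29 for Fkbp5, and Sgk1 was at -0.38 without the first Plekhg5+/+ and -0.39 without the second Plekhg5-/- library, each smaller than the value with all libraries by more than 1.5 times.

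Loss of Plekhg5 was compared within each SOD1 state. In SOD1-G93A mice the differences between Plekhg5-/- and Plekhg5+/+ were 0.22 for Fkbp5 (SE 0.181), 0.11 for Tsc22d3 (SE 0.181) and 0.32 for Zbtb16 (SE 0.573). They were -0.13 for Sgk1 (SE 0.648) and -0.21 for Pdk4 (SE 0.244). The adjusted p-values were 0.711 to 0.96 (edgeR), all groups overlapped, and neither DESeq2 nor an unadjusted p under 0.05 picked out any of the 5, against 8.64% of all genes for the latter. This comparison called 0.0347% of genes, and 10% of genes were lower in Plekhg5-/- SOD1-G93A mice without overlap.

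Without the transgene the differences were -0.17 for Fkbp5 (SE 0.179), -0.47 for Sgk1 (SE 0.646), -0.37 for Tsc22d3 (SE 0.181), -0.57 for Zbtb16 (SE 0.548) and -0.35 for Pdk4 (SE 0.240). All 5 means were lower in Plekhg5-/- mice, all groups overlapped, and the adjusted p-values were 0.942 to 0.997 (edgeR), with 0 of 5 at an unadjusted p under 0.05 (5.32% of all genes) and 0 called by DESeq2. The comparison called 0.0298% of genes, and 3.99% were lower without overlap. The sizes rested on single libraries: with 1 library left out, Fkbp5 ran from -0.48 (without the first Plekhg5-/-) to -0.025 (without the third), and Zbtb16 from -1.63 to -0.20 for the same 2 libraries. Sgk1 ran from -0.89 to -0.047 and Pdk4 from -0.63 to -0.084, in both cases from without the third to without the first Plekhg5+/+ library. Both comparisons against Plekhg5+/+ share the Plekhg5+/+ libraries, in which the means of all 5 genes were the highest of the 4 genotypes.

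**Figure D2:**
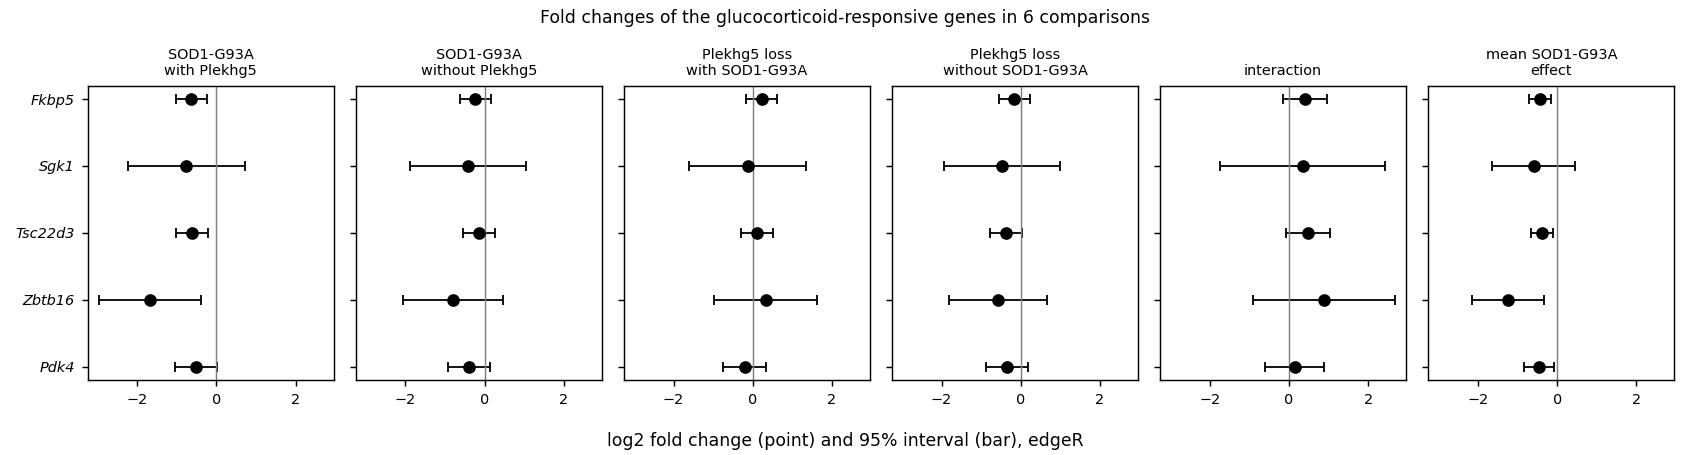
Log2 fold changes (points) and 95% intervals (bars) of the 5 genes in the 6 comparisons, from edgeR. All 5 points lie below 0 for SOD1-G93A with Plekhg5, where the intervals of Fkbp5, Tsc22d3 and Zbtb16 end below 0, and the intervals of Sgk1 and Zbtb16 are the widest.

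The spread between mice within genotypes, pooled over the genotypes, was large for genes of this abundance. The pooled SD within genotypes was 0.86 for Sgk1 and 0.70 for Zbtb16 on the log2 CPM scale, and 99.9% of genes within 0.5 log2 units of the same mean level had a smaller one. For Pdk4 it was 0.36 (98.5% smaller), for Tsc22d3 0.27 (98.3%) and for Fkbp5 0.26 (97.3%). The median SD of genes of like level was 0.092 to 0.11. By this pooled SD the members varied more between mice than typical genes with similar counts, but not in every genotype. Zbtb16 deviated from its genotype mean by -0.85 to 1.40 in Plekhg5-/- and by -0.031 to 0.039 in Plekhg5+/+ SOD1-G93A mice. Fkbp5 deviated by -0.30 to 0.53 in Plekhg5-/- and by -0.036 to 0.026 in Plekhg5-/- SOD1-G93A mice.

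After subtraction of genotype means, the 5 genes shared a direction in some libraries and were split in others. All 5 lay above the genotype mean in Plekhg5+/+ 1 and Plekhg5-/- SOD1-G93A 2. Genes lay on both sides of it in Plekhg5-/- 2, Plekhg5-/- SOD1-G93A 3, and Plekhg5+/+ SOD1-G93A 1 and 3, among others. All 5 lay below the genotype mean in the third Plekhg5+/+, the third Plekhg5-/- and, apart from Fkbp5, the first Plekhg5-/- SOD1-G93A library. All 10 pairs had a positive Pearson r across the 12 libraries, from 0.14 to 0.81. The strongest were Fkbp5 with Zbtb16 (r = 0.812, rho = 0.601), Sgk1 with Pdk4 (r = 0.811, rho = 0.748) and Sgk1 with Tsc22d3 (r = 0.795, rho = 0.706). Their exact permutation p-values within genotypes were 0.0787, 0.0247 and 0.0193 (adjusted 0.131, 0.0823 and 0.0823), and for rho 0.129, 0.0347 and 0.0347 (adjusted 0.184, 0.0772 and 0.0772). Over the 10 pairs, 0 passed an adjusted p of 0.05 by r or by rho.

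The values moved both ways without the 2 libraries farthest from the median, with 5 pairs higher and 5 lower. The 3 strongest values became 0.454, 0.527 and 0.596, and the pair of Sgk1 and Zbtb16 turned from 0.353 to -0.089. For Fkbp5 with Zbtb16 the libraries left out were the first Plekhg5-/- and the third Plekhg5+/+ SOD1-G93A. Tsc22d3 with Pdk4 was 0.704 with all libraries (exact p = 0.0340, adjusted 0.0849; rho = 0.482, p = 0.20, adjusted 0.222) and 0.864 without 2. Zbtb16 with Pdk4 went from 0.526 to 0.838, Tsc22d3 with Zbtb16 from 0.660 to 0.774, Fkbp5 with Sgk1 from 0.135 to 0.474 and Fkbp5 with Pdk4 from 0.188 to 0.545. Values of 1 library share its RNA preparation and depth.

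**Figure D3:**
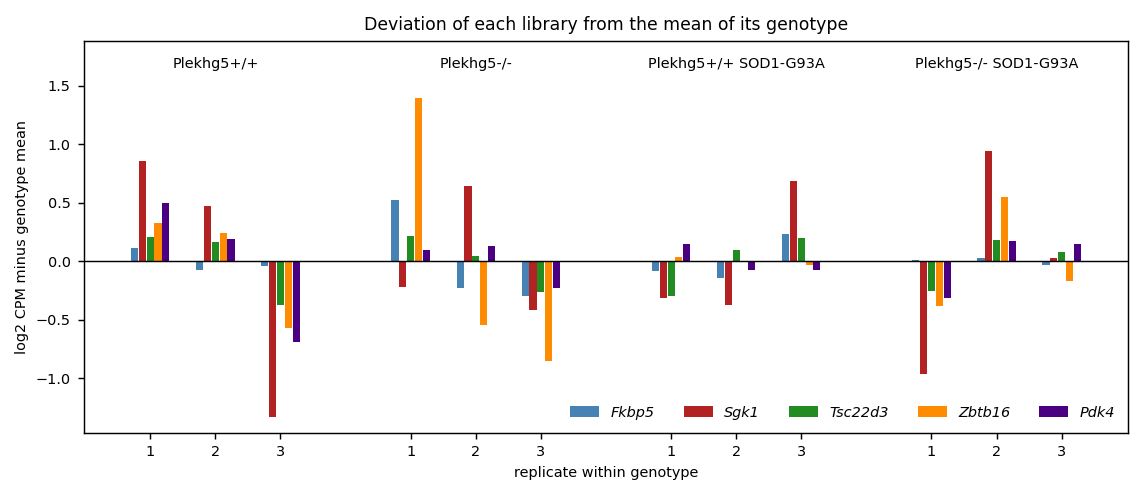
Deviation of log2 CPM from the genotype mean for each of the 12 libraries, with 1 bar per gene. All 5 bars point down in the third Plekhg5+/+ and the third Plekhg5-/- library, and the bars of Sgk1 and Zbtb16 are the longest, with opposite directions in the first 2 Plekhg5-/- libraries.

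The genes whose log2 CPM was most like that of each member over the 12 libraries were listed by Pearson r, as a description without a test. For Fkbp5 they were Pxylp1 (r = 0.968), Map7 (0.947) and Lztr1 (0.921). For Sgk1 they were Arl4d (r = 0.950), the scarcely expressed Gm13791 (0.923) and Per1 (0.908), a clock gene that is itself a glucocorticoid target. For Tsc22d3 they were Mettl7a2 (r = 0.965), Pgbd5 (0.962) and Usp54 (0.958).

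Zbtb16 was most like Cpm (r = 0.943), Pxylp1 (0.930) and Pex13 (0.925), so Pxylp1 was near the top for both Fkbp5 and Zbtb16. Pdk4 was most like Ist1 (r = 0.924), Zfp276 (0.923) and Gtf2e2 (0.918). The mean of the 5 standardised profiles was most like LOC105244487 (r = 0.962), Mettl7a2 (0.958), Ube2w (0.957), Rhpn2 (0.949), Cpm (0.942), Mxd4 (0.942), 9530077C05Rik (0.941), Mthfd2 (0.940), Klf15 (0.937) and Adipor2 (0.934). Klf15 is a transcription factor of fasting metabolism and Adipor2 a receptor for adiponectin. Ranked by Spearman's rho in place of r, 2 of these 10 genes stayed among the first 10, and 0 to 1 of the 3 genes of each member stayed among its first 3.

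Of the receptors and co-factors of the pathway, 12 were listed and 11 passed the filter. Hsd11b2, the enzyme that inactivates glucocorticoids in kidney, had 0 to 9 counts per library and was not tested. Nr3c1, the glucocorticoid receptor, had 86.9, 90.2 and 88.9 CPM in Plekhg5+/+ and 99.9, 93.9 and 89.5 CPM in Plekhg5+/+ SOD1-G93A mice. It had 84.9, 95.5 and 105 CPM in Plekhg5-/- and 91.2, 88.9 and 96.3 CPM in Plekhg5-/- SOD1-G93A mice, and the groups overlapped throughout.

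With Plekhg5, the SOD1-G93A difference of Nr3c1 was 0.091 (SE 0.0746, adjusted p = 0.563, edgeR). That of Nr3c2, the mineralocorticoid receptor, was 0.024 (SE 0.101, adjusted p = 0.934). That of Hsd11b1, which regenerates active hormone inside cells, was -0.097 (SE 0.130, adjusted p = 0.747). Group means were 88.7 to 95.2 CPM for Nr3c1, 46.9 to 51.3 CPM for Nr3c2 and 27.2 to 32.3 CPM for Hsd11b1, and none of the 3 was called in any comparison by edgeR or DESeq2.

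Of the 11 genes, Hsp90aa1 alone was called by edgeR, and in this comparison only. This Hsp90 chaperone had 1559, 1291 and 1235 CPM in Plekhg5+/+ and 1003, 1136 and 977 CPM in Plekhg5+/+ SOD1-G93A mice, without overlap. It fell by 0.39 on the log2 scale (SE 0.0844, adjusted p = 0.0338, edgeR), and its counts held fractions from shared reads in all 12 libraries. The call held in 14 of 23 alternatives. Among these 14 was the main fit at an adjusted p under 0.1, where a call made at 0.05 could not be lost. The call was lost in the other 9, with adjusted p = 0.127 with only the 2 genotypes in the fit. It was lost without the first (0.0868) or the second Plekhg5+/+ library (0.103), and without the first (0.127) or the third Plekhg5+/+ SOD1-G93A library (0.0767). It was also lost without the second Plekhg5-/- (0.0562) or the second Plekhg5-/- SOD1-G93A library (0.0554), without the 4 libraries with most muscle transcripts (0.139) and with limma voom (0.0576). The 5 receptor chaperones Hsp90aa1, Hsp90ab1, Stip1, Fkbp4 and Ptges3 were the 5 genes of the list with an unadjusted p under 0.05 in this comparison, all with lower means and without overlap, against 7.51% and 9% of all genes, which was seen after the fit. The same 5 also had lower means at an unadjusted p under 0.05 for Plekhg5 loss without SOD1-G93A, where 2.79% of all genes did and none of the 5 was called. There Hsp90aa1 differed by -0.34 and Ptges3 by -0.29, and both comparisons share the Plekhg5+/+ libraries. With SOD1-G93A in mice without Plekhg5, the 5 differences were 0.042 to 0.12 and none was called. For SOD1-G93A with Plekhg5, DESeq2 without a prior called 4 of the 5, all but Ptges3, and it called Hsp90aa1 also for the interaction.

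The list of 26 other glucocorticoid targets was then compared with the members. None of the 26 was called in any of the 6 comparisons by edgeR, and DESeq2 called 1, Map3k6, for SOD1-G93A with Plekhg5. For SOD1-G93A with Plekhg5, 19 had a negative and 7 a positive difference, with a median of -0.14 beside -0.00099 over all genes, and 3 of 26 had an unadjusted p under 0.05, 2 of them lower, where 18.2% of all genes did. For the average over both backgrounds, 18 were negative and 8 positive, with a median of -0.050 beside -0.0058 over all genes and 0 at an unadjusted p under 0.05, against 14.7% of all genes. An unadjusted p under 0.05 was found for 0 of the 26 for SOD1-G93A without Plekhg5 (5.38% of all genes), 1 for Plekhg5 loss with SOD1-G93A (8.64%), 3 for Plekhg5 loss without it (5.32%) and 2 for the interaction (9.05%).

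The 4 targets with the largest average effect were named, and 3 of them had lower means with the transgene. Plin4, a lipid droplet protein, had 55.9, 39.7 and 48.0 CPM in Plekhg5+/+ and 15.6, 12.9 and 31.3 CPM in Plekhg5+/+ SOD1-G93A mice, and 83.0, 26.5 and 5.52 CPM in Plekhg5-/- and 21.2, 54.8 and 22.5 CPM in Plekhg5-/- SOD1-G93A mice. Its average difference was -0.74 (SE 0.573, adjusted p = 0.637, edgeR), and its first Plekhg5-/- library was the highest of the 12, as for Fkbp5 and Zbtb16. Arrdc2, an arrestin-domain protein, differed by -0.55 (SE 0.252, adjusted p = 0.345).

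Hif3a, a hypoxia-inducible factor subunit, differed by -0.50 (SE 0.414, adjusted p = 0.664). Lcn2, an iron-binding acute-phase protein, differed by 0.51 (SE 0.652, adjusted p = 0.813), with values from 2.71 to 34.0 CPM over the libraries. Its highest value was in the first Plekhg5-/- SOD1-G93A library, where Sgk1, Tsc22d3, Zbtb16 and Pdk4 had their lowest values of that genotype.

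Across the 12 libraries, 23 of the 26 targets had a positive r with the mean of the 5 members, with a median of 0.55, beside 49.8% positive and a median of -0.0026 over the 20150 other genes. With genotype means removed, 25 of 26 were positive with a median of 0.65, beside 49.0% of all genes. The closest were Arrdc2 (r = 0.922), Cdkn1a (0.902), a cell cycle inhibitor, Bcl6 (0.839), a transcriptional repressor, Klf9 (0.825), a zinc finger factor, and Map3k6 (0.821), a stress kinase. An r of at least 0.8 was found for these 5 of 26 targets and for 0.819% of all genes. The lowest were Zfp36 (-0.128), Mt1 (-0.0954) and Lcn2 (-0.0017).

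Likeness between mice and transgene effect are different measures. Bcl6 tracked the members between mice, although its groups differed little. It had 39.7 ± 5.41 CPM in Plekhg5+/+ and 36.1 ± 0.433 CPM in Plekhg5+/+ SOD1-G93A mice, a log2 difference of -0.14. The other close targets differed more, Klf9 by -0.28, Cdkn1a by -0.53, Arrdc2 by -0.63 and Map3k6 by -1.22. None of them was called by edgeR, and DESeq2 called Map3k6. Metallothioneins Mt1 and Mt2 tracked the members more closely within genotypes (r = 0.549 and 0.665) than over all 12 libraries (-0.0954 and 0.112). The sum of 10 clock genes was 506 to 605 CPM over the 12 libraries. For SOD1-G93A with Plekhg5, 8 of the 10 were lower, with differences from -0.43 to 0.515. Changes in opposite directions offset each other in a sum, so the sum does not give a time of collection. In each comparison 0 of 10 were called by edgeR or DESeq2. At an unadjusted p under 0.05 (edgeR) there were 0 to 1, against 5.32% to 18.2% of all genes.

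**Figure D4:**
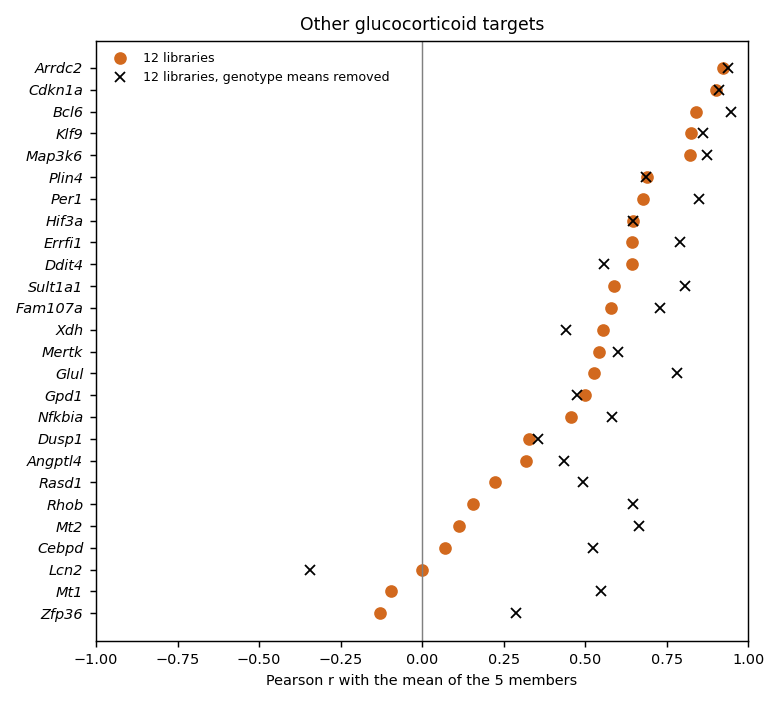
Pearson r of 26 other glucocorticoid targets with the mean of the 5 members over 12 libraries (circles) and with genotype means removed (crosses). Arrdc2, Cdkn1a, Bcl6, Klf9 and Map3k6 lie above 0.8 by either measure, and Lcn2 is the only gene with a negative cross.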

How the data were processed

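Per the labels and methods, total RNA of spinal cord was enriched for poly-A RNA, and stranded libraries were sequenced from 12 mice, with 3 per genotype. The authors trimmed the reads (Cutadapt 2.4), aligned them with STAR 2.7.2b (GRCm38.p6 plus the cDNA of human SOD1), and summarised exonic reads per gene by strand (featureCounts 1.6.4), with shared reads as fractions. The values the authors deposited are therefore estimated counts per gene, without normalization. Shared reads can move counts between similar genes. Each of the 12 columns was matched to a mouse, and 0 columns were left without one.

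The counts were rounded to whole numbers. In R 4.3.3, edgeR 4.0.16 was used with filterByExpr, TMM and robust quasi-likelihood fits of all 4 genotypes, and p-values were adjusted by Benjamini-Hochberg over 20155 genes (threshold 0.05). Values per library are TMM-normalised CPM, and log2 CPM had a prior count of 2. Single values and correlations were tested by two-sided exact permutation. The models were tested on simulated data. The replicates of a genotype differed beyond sampling noise and were counted as separate mice.

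The members and lists were chosen with earlier results of these data known, so no p over a list is given. Named were the members, Nr3c1, Nr3c2 and Hsd11b1, listed genes that were called, the 4 other targets with the largest average transgene effect, and the genes most like each member (3) or their mean (10); other targets are named by their r, after it was seen. The alternatives were DESeq2 1.42.0 with and without a prior, DESeq2 size factors, no filter, at least 10 counts in every library, only the 2 genotypes compared, a replicate block, a covariate for Y-linked transcripts (over 1000 counts), an adjusted p under 0.1 and each library left out. The fit without the 4 libraries with most muscle transcripts and limma 3.58.1 voom with quality weights were added after seeing the data. Promoter sequences are from RefSeq on GRCm38.p6. Figures were drawn with matplotlib 3.10.9.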

Additional observations from a re-analysis of the deposited data

How the results depend on the processing

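With 3 mice per genotype and pooled SDs of up to 0.86 on the log2 scale, the intervals of Sgk1 and Zbtb16 stayed wide. For SOD1-G93A with Plekhg5, where edgeR called 0 members, 2 were called (Fkbp5 and Tsc22d3) by DESeq2 without a prior, by DESeq2 with it and at an adjusted p under 0.1; 1 (Sgk1) was called without the 4 libraries with most muscle transcripts and 1 (Fkbp5) by limma voom. With each library left out, 0 to 2 members were called. For the average over both backgrounds, both DESeq2 fits called 2 (Fkbp5 and Tsc22d3), and leaving out a library gave 0 to 1. The counts stayed at 0 in the other 4 comparisons under every alternative run. DESeq2 with the prior was not run for the interaction. Direction was kept by all 5 members in both of these comparisons under every alternative.

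The direction turned in 13 values of the remaining comparisons, and the cause was not tested. For SOD1-G93A without Plekhg5, Fkbp5 ran from -0.39 to 0.066 and Zbtb16 from -1.16 to 0.26 with a library left out, both highest without Plekhg5-/- 1. For Plekhg5 loss with SOD1-G93A, Tsc22d3 ran from -0.028 (without Plekhg5+/+ SOD1-G93A 1) to 0.23, and Sgk1 from -0.71 to 0.30 (without Plekhg5+/+ SOD1-G93A 3), with 0.23 without Plekhg5-/- SOD1-G93A 1. Zbtb16 ran from -0.0062 (without Plekhg5-/- SOD1-G93A 2) to 0.51 and was -0.024 without the 4 libraries with most muscle transcripts. For Plekhg5 loss alone, Sgk1 was 0.24 with limma voom. For the interaction, Sgk1 ran from -0.24 (without Plekhg5-/- SOD1-G93A 2) to 0.78, with -0.079 without Plekhg5+/+ 1, Pdk4 ran from -0.12 (without Plekhg5+/+ 1) to 0.43, and Sgk1 was -0.39 and Pdk4 -0.11 with limma voom. The correlation of Sgk1 with Zbtb16 was -0.089 without 2 libraries.

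The count over all genes for SOD1-G93A with Plekhg5 (498) was 1149 and 1196 with DESeq2 without and with the prior, 3 with only the 2 genotypes, 1145 at 0.1, 124 without the 4 libraries, 295 with voom and 2 to 771 with a library left out (2 without Plekhg5+/+ 2). For SOD1-G93A without Plekhg5 (1) it was 43, 41, 20 with 2 genotypes, 7 with voom, 0 with at least 10 counts, and 1 to 9. For Plekhg5 loss with SOD1-G93A (7) it was 75, 116, 11 with 2 genotypes, 2 without the 4 libraries, and 4 to 8. For Plekhg5 loss alone (6) it was 34, 32, and 5 to 59 (59 without Plekhg5+/+ 3). For the interaction (0) it was 95 with DESeq2, 1 without the filter, 2 without the 4 libraries, and 0 to 40. For the average (245) it was 825, 819, 412 with the Y-linked covariate, 733 at 0.1, 5 without the 4 libraries, 620 with voom, and 10 to 560.

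Replicate numbers were taken as numbers of different mice, without pairing. Same-numbered libraries of different genotypes correlated at -0.163 to 0.318 (median 0.0054), and differently numbered ones at -0.334 to 0.283 (median -0.034). Whether same-numbered libraries were handled together was not tested. With the replicate block, 0 members were called in every comparison, and the average over both backgrounds had 417 genes, against 245 without it.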
